A study of Arabidopsis thaliana with 8 samples.

Results

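The effect of PK12 overexpression on transcript ratios was compared between Arabidopsis thaliana plants of 21 days and plants of 10 days. PK12 is a protein kinase of the LAMMER family. The comparison covered all 8 arrays of the study and the 2917 genes that could be measured at both ages, out of 3525 genes named on either array type. A gene was included where expressed sequence tags (ESTs) that name 1 gene represented it on both array types and it had a value on every array.

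Each array was hybridised with total RNA of non-transformed plants in channel 1 and of plants that overexpress PK12 in channel 2, all grown under long days. Plants of 10 days were measured on 4 arrays (titles 56, 57, 60 and 61) of a 12K EST type, and plants of 21 days on 4 arrays (titles b100, b90, t100 and t90) of a 9K EST type. The measurement is the log2 ratio of the channels, centred on the median of each array, and the quantity compared is its mean at 21 days minus its mean at 10 days. The sources used here do not state the numerator of the ratio, the ecotype, the organs harvested, the number of transgenic lines or the promoter of the transgene. If channel 2 is the numerator, a positive ratio is a higher level in the overexpressing plants. A higher or lower ratio below is therefore a position on the deposited scale and not a higher or lower level in PK12 plants. Age and array type changed together and cannot be told apart. The 4 repetitions of an age come from 2 independent biological experiments that the labels do not match to arrays. The spread behind the p-values therefore holds a technical part.

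LAMMER kinases phosphorylate the serine- and arginine-rich proteins that guide the choice of splice sites, and are named after a conserved motif in their catalytic domain. An array of ESTs reads the summed abundance of the transcripts of a gene and does not separate splice forms. Between these ages an Arabidopsis rosette under long days passes from a seedling with its first leaves towards flowering.

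The ratios of the ages had little in common across genes. Pearson's r between the 21-day and the 10-day means was 0.06 over the 2917 genes, which are not independent replicates. Single arrays of different ages correlated at r from -0.11 to 0.09, and no array was shared by the ages. Within 10 days array pairs correlated at r from 0.21 to 0.61 (median 0.49), and within 21 days from -0.07 to 0.35 (median 0.09). The closest pairs were 56 with 60 (0.61) and 57 with 61 (0.59) at 10 days and b90 with t90 (0.35) at 21 days. Array b100 correlated at -0.07 with b90 and at -0.05 with t90, and stood apart from its age in that sense. The spread of ratios across genes was wider at 10 days (SD 0.61 to 0.83 on the log2 scale) than at 21 days (0.52 to 0.60). The files give ratios without intensities, so the signal behind a value is unknown, and precision is limited by how many arrays there were.

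The ratio was higher at 21 days for 40 genes and lower for 66, by limma at a Benjamini-Hochberg adjusted p under 0.05. These 106 genes are 3.63% of the genes tested, 1.37% on the higher and 2.26% on the lower side. Photosynthesis genes such as Rubisco activase (RCA), phosphoribulokinase (PRK) and the thylakoid protein TROL were on the higher side. The lower side held the chloroplast RNA-binding protein RAP, the osmotin-like protein OSM34 and the glycosyltransferases GT72B1 and UGT72E2, beside many genes known only by a locus code. Differences among the 106 genes ranged in size from 1.001 to 3.85 on the log2 scale, with a median of 1.48, or 2.80-fold. An unadjusted p under 0.05 was reached by 660 genes.

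The difference came mostly with a departure from equal channels at 10 days. The 10-day mean was larger in size than the 21-day mean for 96 of the 106 genes. Their median size was 1.27 at 10 days and 0.29 at 21 days, against 0.33 and 0.19 over all genes tested. All 4 arrays of 10 days had one sign for 103 of the 106 genes, and all 4 arrays of 21 days for 35, against 39.3% and 16.8% of all genes tested. The ages did not overlap, with all 4 arrays of one age above all 4 of the other, for 105 of the 106 genes and for 14.5% of all genes tested. The 106 genes were called on these same values, so their counts follow in part from that choice and are a description. The arrays of 21 days also correlated less with one another (median r 0.09) than those of 10 days (0.49). A 21-day mean near 0 therefore does not show that an effect was absent at that age. With arrays scaled to one spread 19 genes passed as higher and 32 as lower.

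**Figure D1:**
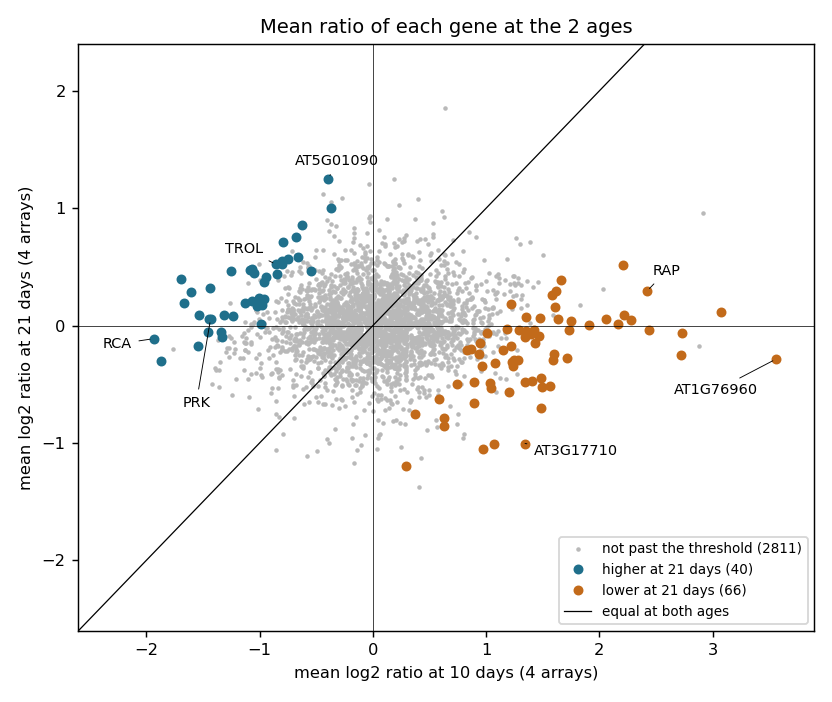
Mean centred log2 ratio of each of the 2917 genes at 10 days (x axis) and at 21 days (y axis), each over 4 arrays, with the 40 genes higher and the 66 genes lower at 21 days in colour. The coloured genes spread along the x axis, while their 21-day means lie closer to 0.

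The count of genes rested on the treatment of the arrays. The closest pairs of arrays were 56 with 60, 57 with 61 and b90 with t90. Arrays b100 and t100 (r = 0.08) were the remaining pair, although t100 correlated at 0.11 with t90. All of these are called the closest pairs below, and the labels do not tie them to the 2 experiments of an age. With these pairs as a random block in limma, chosen after their correlations had been seen, 8 genes passed as higher and 21 as lower, all 29 of them among the 106. Leaving out 1 array left between 11 and 35 higher genes and between 29 and 62 lower ones, the fewest without array t90. Whichever array was left out, 33 genes passed each time, 9 higher and 24 lower, and 25 of these also passed under all 12 other settings that keep the sign and test a difference of 0. The 25 genes were 7 higher and 18 lower. With the sign of the 21-day ratio turned, 15 of the 25 still passed and 10 did not, TROL, AT3G17710, AT2G39710 and AT5G10650 among the latter, and AT5G27430 changed sign (-1.48 and 0.23). Of the 25 genes 4 have a gene symbol, namely TROL, RH39 and UBC32 on the higher side and RAP on the lower side.

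**Figure D2:**
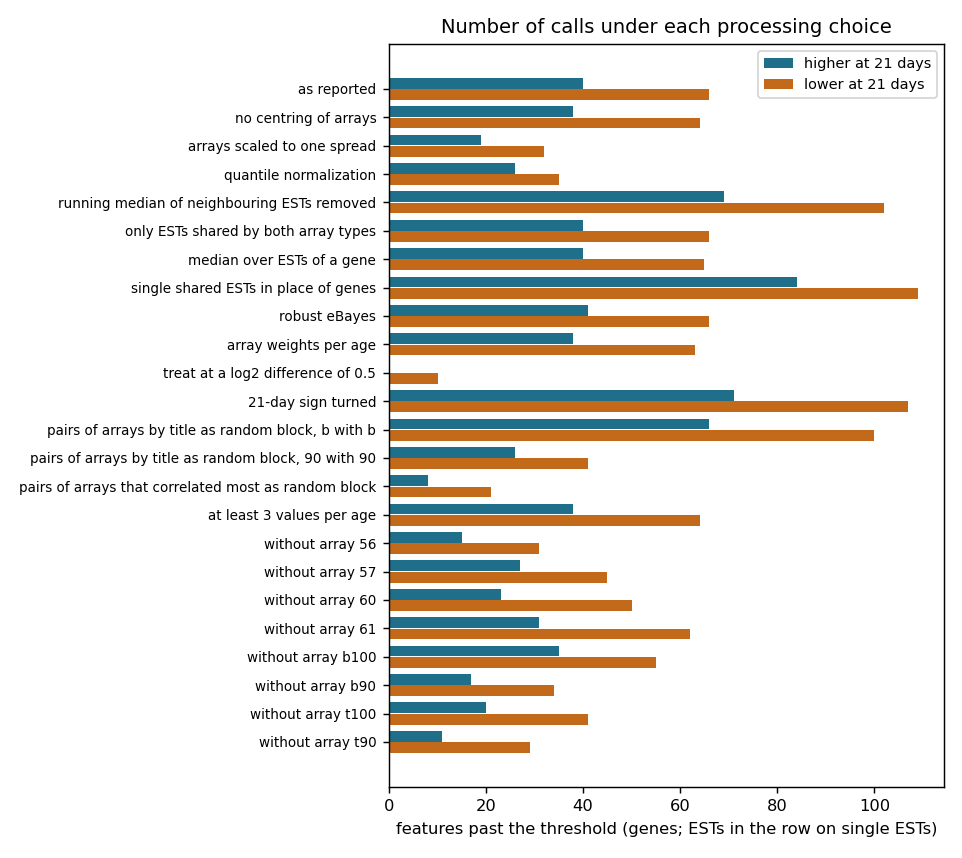
Number of genes past the threshold with a higher and with a lower ratio at 21 days (x axis) in the comparison as reported and under each other setting, including the arrays left out in turn. The counts are 40 and 66 as reported, fall to 8 and 21 with the closest pairs of arrays as a block, and rise to 71 and 107 with the 21-day sign turned.

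RAP, which takes part in the maturation of chloroplast ribosomal RNA, was at 2.66, 2.00, 2.65 and 2.37 on arrays 56, 57, 60 and 61 of 10 days. On arrays b100, b90, t100 and t90 of 21 days it was at -0.17, 1.04, 0.17 and 0.13, and values below are given in these orders. The lowest array of 10 days lay well above the highest of 21 days, and the difference of the means was -2.13 ± 0.31 (SE), with an adjusted p of 0.00513 in limma. RH39, a DEAD-box RNA helicase of the chloroplast that also acts on ribosomal RNA, lay on the other side, with values of -1.69, -1.57, -1.43 and -1.07 at 10 days and of 0.15, -0.15, -0.07 and 0.29 at 21 days. Its difference was 1.497 ± 0.25 (adjusted p = 0.012 in limma), and all 4 arrays of 21 days were near 0. Both genes were represented by 1 EST, the same on both array types.

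TROL, a thylakoid protein that tethers the ferredoxin-NADP reductase, was at -0.80, -0.58, -1.21 and -0.84 at 10 days. At 21 days it was at 0.61, 0.41, 0.62 and 0.45, so the arrays of each age had one sign and the signs were opposite. The difference was 1.38 ± 0.25 (adjusted p = 0.0148 in limma), and 0.0369 with the closest pairs of arrays as a block. UBC32, a ubiquitin-conjugating enzyme of the endoplasmic reticulum that acts in the removal of misfolded proteins, was at -1.19, -1.34, -1.33 and -1.38 at 10 days. It had the values 0.28, 0.34, -0.10 and -0.16 at 21 days. The 10-day arrays were nearly alike (SD 0.08, n = 4) and far below those of 21 days, with a difference of 1.40 ± 0.24 (adjusted p = 0.0135 in limma).

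The largest differences on either side were in genes that the annotation used here gives no name. AT1G76960 had the largest of all, with 4.69, 5.65, 1.57 and 2.33 at 10 days and 0.59, -0.81, 0.25 and -1.16 at 21 days. Arrays 56 and 57 stood far above arrays 60 and 61, and the ages did not overlap. The difference was -3.85 ± 0.77 (adjusted p = 0.0193 in limma), and it passed neither with the closest pairs as a block (adjusted p = 0.0607) nor without array 56, b90 or t90 (adjusted p up to 0.0688). AT3G13650 was at 2.49, 2.27, 3.18 and 2.94 at 10 days and at -0.43, 0.45, -0.73 and -0.29 at 21 days, with a difference of -2.97 ± 0.32. AT5G63940 was at 2.96, 2.45, 2.75 and 2.77 and then at -0.71, 0.22, 0.01 and 0.23, with a difference of -2.79 ± 0.28. These 2 genes shared the smallest adjusted p in limma, 0.000927, and both passed under every alternative that tested a difference of 0.

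AT2G38870 (-2.95), AT3G26470 (-2.47), AT3G17710 (-2.35) and AT3G02360 (-2.23) followed on the lower side and were also kept whichever array was left out. AT3G60420 (-2.19) and AT5G17760 (-2.13) completed the 10 largest lower differences with non-overlapping ages, together with RAP. GT72B1 (-2.15), whose ages overlapped, is left out of this order. AT3G60420 did not pass with the closest pairs as a block (adjusted p = 0.0607) and spread from -1.94 to 0.69 over the arrays of 21 days. On the higher side AT5G49440 led with 2.09 ± 0.47, from -2.72, -2.37, -0.88 and -0.80 at 10 days to -0.55, 0.97, 0.56 and 0.62 at 21 days. It was lost with the closest pairs as a block (adjusted p = 0.0971), as were AT3G43540 (1.89), AT4G29590 (1.86), AT5G66390 (1.72), AT5G01090 (1.64) and AT2G18980 (1.56). AT5G66390 encodes a secreted class III peroxidase (PRX72). AT4G30630 (1.76), AT3G56510 (1.63) and AT5G25820 (1.56) passed under that block and whichever array was left out. Of the others, each was lost without array 56, b90 or t90, with the adjusted p over all arrays left out reaching 0.0918 for AT5G49440, 0.0958 for AT3G43540, 0.0748 for AT4G29590, 0.0916 for AT5G66390, 0.0878 for AT5G01090, 0.0734 for AT2G18980 and 0.0842 for AT3G60420.

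**Figure D3:**
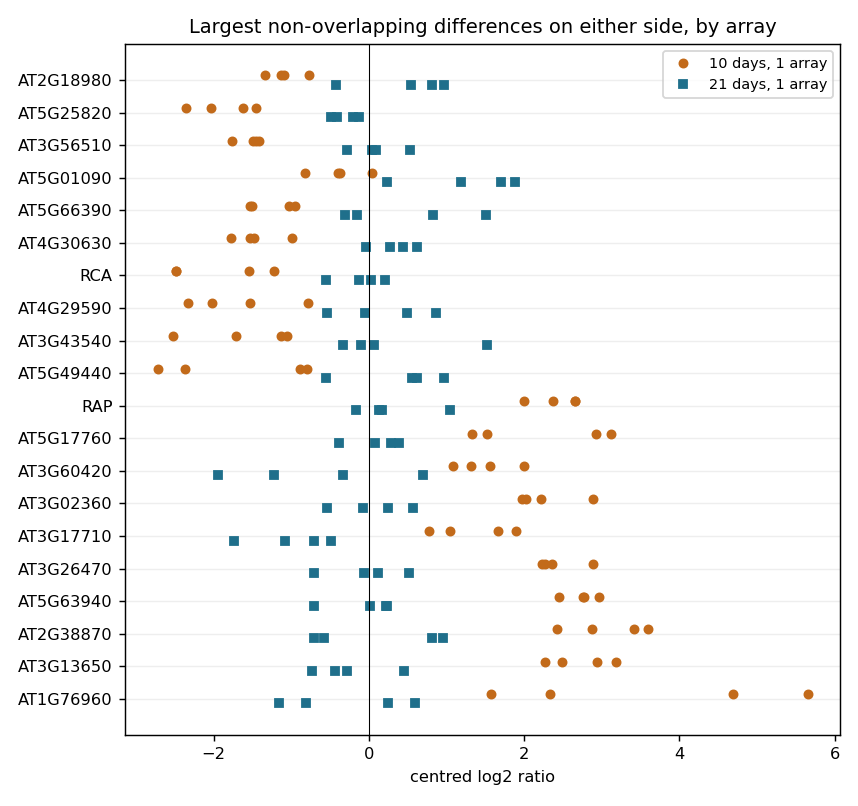
Centred log2 ratio on each array (x axis) of the 10 genes with the largest higher and the 10 with the largest lower difference at 21 days among genes past the threshold whose ages do not overlap, with circles for the 4 arrays of 10 days and squares for the 4 arrays of 21 days. The gap between the ages is fixed by this choice of genes. AT1G76960 spreads from 1.57 to 5.65 at 10 days.

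Some genes were measured by several ESTs, which share the RNA and the slide. Of the 106 genes, 71 rested on 1 EST per array type, and 20 had 2 or more ESTs common to both types. In 18 of the 20 all ESTs went in the direction of the gene, 57 of 59 ESTs in all, which is a description, since the genes were called on the mean of these ESTs. AT5G26260, with 7 common ESTs, had differences from 1.24 to 1.93 and 5 of the ESTs passed on their own. The 6 ESTs of PRK ran from 0.89 to 2.25 and the 3 of RCA from 1.56 to 2.05. The exceptions were OSM34, with 1 of 3 ESTs at 0.37 against -2.997 for the lowest, and AT4G25580, whose 2 ESTs were at -3.09 and 0.29. ESTs of one direction could still be unequal in size. AT1G03106, kept whichever array was left out, had ESTs at -0.06 and -3.74, and AT1G20370 at -0.35 and -2.21.

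The leaf captures light with chlorophyll-binding proteins of the thylakoid, passes electrons along the membrane, and fixes carbon in the Calvin cycle of the stroma. Lists of these steps held 32 genes, of which 4 passed as higher at 21 days and 0 as lower. Over all genes tested 1.37% passed as higher and 2.26% as lower. The difference was positive for 28 of the 32 genes and its median was 0.50, against -0.02 and 1407 of 2917 positive differences over all genes tested. At 10 days 29 of the 32 genes had a negative mean, and at 21 days 17 did. The median over the 32 genes lay between -0.57 and -0.46 on the arrays of 10 days and between -0.28 and 0.12 on those of 21 days. The lists were drawn up with earlier results of these data known, so the direction is no independent evidence, and the values describe the lists without a test.

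RCA, which removes inhibitory sugar phosphates from Rubisco and so keeps it active, was at -2.48, -2.49, -1.22 and -1.55 at 10 days. At 21 days it was at 0.21, -0.55, 0.02 and -0.13. The highest array of 10 days was below the lowest of 21 days, and the difference was 1.82 ± 0.34 (adjusted p = 0.0152 in limma). It passed whichever array was left out but not with the closest pairs as a block (adjusted p = 0.0507). PRK, which makes the sugar phosphate that Rubisco carboxylates, was at -1.54, -2.09, -0.86 and -1.24 at 10 days and at 0.59, -0.27, -0.07 and -0.03 at 21 days. Its difference was 1.49 ± 0.32 (adjusted p = 0.026 in limma, 0.067 with the closest pairs as a block), and the ages did not overlap. PRK was lost without array 56, 57, b100, t100 or t90, with an adjusted p of up to 0.0696 in limma.

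The other 7 genes of the Calvin cycle and photorespiration did not pass, with differences from -0.14 to 0.24. SBPASE, the bisphosphatase that commits sugar phosphates to regeneration, had means of -0.70 at 10 days and -0.46 at 21 days. HPR, the hydroxypyruvate reductase of photorespiration, had means of -0.59 and -0.53. Both were negative on all 8 arrays. The median difference of the 9 genes was 0.08, with 7 of them positive.

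Of the 8 light-harvesting and photosystem genes, 0 passed as higher or lower. Their median difference was 0.71, with 7 positive. LHCB4.2, a minor antenna protein of photosystem II, was at -1.26, -1.05, -1.23 and -1.17 at 10 days and at -0.11, -0.43, -0.01 and -0.56 at 21 days. The ages did not overlap, yet the difference of 0.90 missed the threshold (adjusted p = 0.0633 in limma). PSAN, a luminal subunit of photosystem I, was at 0.996 (adjusted p = 0.0574) and the assembly factor PSB27 at 1.03 ± 0.35 (adjusted p = 0.114). LHCB4.3 went the other way, with means of 0.79 at 10 days and 0.30 at 21 days.

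Thylakoid electron flow and structure held 10 genes, of which TROL and AT1G52220 passed as higher, against 1.37% of all genes tested. AT1G52220 encodes CURT1C, a protein that bends the thylakoid membrane at the margins of the grana. It was at -0.56, -0.28, -0.81 and -0.53 at 10 days and at 0.21, 0.47, 0.56 and 0.61 at 21 days. As with TROL, each age had one sign, and the difference was 1.01 ± 0.25 (adjusted p = 0.0441 in limma, 0.108 with the closest pairs as a block). AT1G52220 kept its call without array b100 and was lost without any other (adjusted p up to 0.099). The median of the list was 0.69, with 9 of 10 genes positive. The chloroplast ATP synthase subunit ATPC1 (0.89), the thiol transporter CcdA (0.90) and the NDH complex subunit NdhS (0.93) did not pass.

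All 5 genes of chlorophyll and carotenoid synthesis had a positive difference and 0 passed, with a median of 0.51. Lycopene cyclase (LYC), at the branch towards the beta-carotene pigments, came nearest with 1.28 ± 0.33 (adjusted p = 0.0516 in limma). It was at -0.50, -1.37, -0.02 and -0.83 at 10 days and at 0.09, 0.90, 0.84 and 0.57 at 21 days. Protochlorophyllide reductase PORB, which makes chlorophyll precursors in the light, differed by 0.07.

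**Figure D4:**
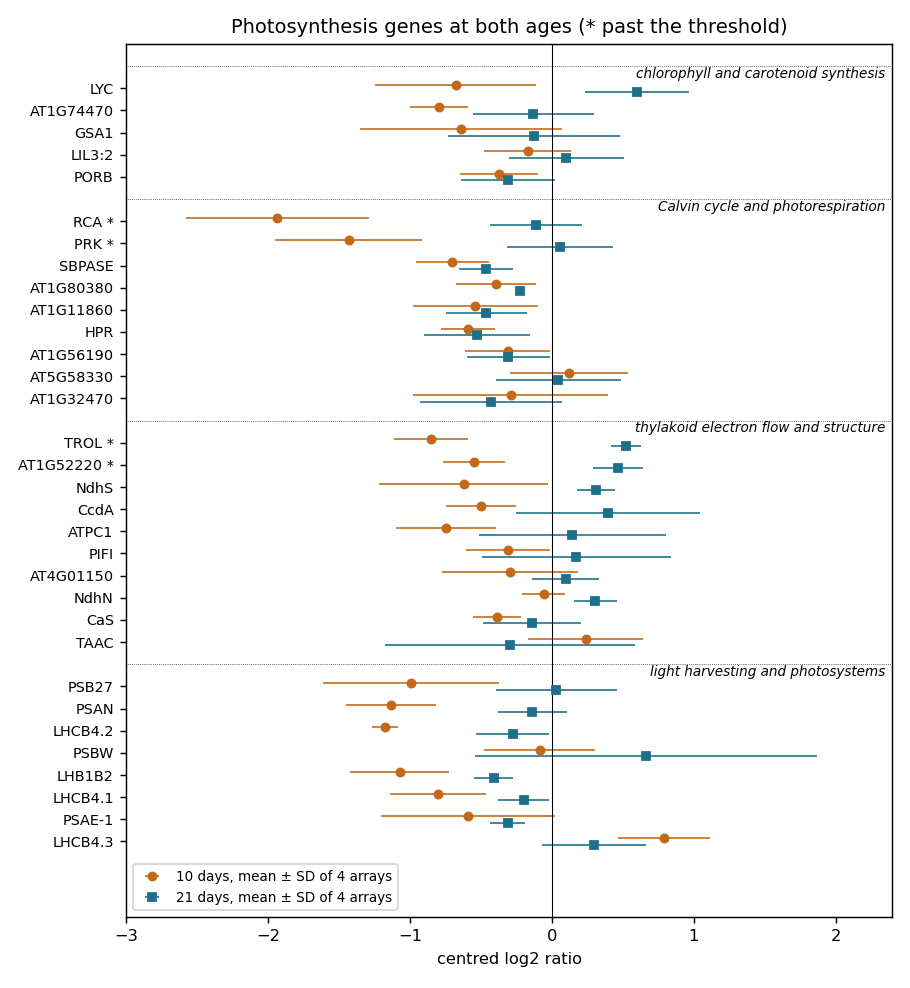
Mean centred log2 ratio (x axis) with SD over 4 arrays for the 32 photosynthesis genes, grouped by step, with circles for 10 days and squares for 21 days. The 10-day means of 29 genes are below 0, while 15 of the 21-day means are above 0, and the asterisks mark the 4 genes past the threshold.

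The sign of the 21-day ratio relative to the 10-day ratio was checked by turning it, since the array types could have been read in opposite orientation. With the sign turned the fit compares minus the 21-day mean with the 10-day mean. It then gave 178 genes, or 6.1% of those tested, 71 of them positive and 107 negative. Of the 106 genes, 46 passed both ways and kept their direction, 14 higher and 32 lower, and 60 passed only as deposited. For the 46 genes the direction does not depend on the orientation of the 21-day arrays. RCA (2.05 with the sign turned), PRK (1.38), RH39, UBC32, RAP and OSM34 were among them. A further 132 genes passed only with the sign turned, the largest being AT5G42530 (-3.88), AT1G08940 (-2.35), the gene YLS5 (-2.11), AT1G72910 (-2.10) and AT3G10860 (-2.005).

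The steps of photosynthesis divided under this check. Of the 8 light-harvesting and photosystem genes 5 passed with the sign turned and 0 as deposited, and of the 9 Calvin cycle and photorespiration genes 4 and 2. LHCB4.2 (1.45), LHB1B2 (1.48), PSAN (1.27) and LHCB4.1 (1.004) passed with the sign turned because their means were negative at both ages, and so did SBPASE (1.17) and HPR (1.12). LHCB4.3 passed in the opposite direction (-1.09, adjusted p = 0.042 in limma), with positive means at both ages. Of the 10 thylakoid genes 0 passed with the sign turned and 2 as deposited, TROL being at 0.33 and AT1G52220 at 0.08. Without knowing the orientation, the ratios of RCA and PRK are the ones in these lists that passed either way. Medians of lists described below depended on it too. With the sign turned they were negative for signalling peptides (-0.43), protein kinases (-0.04), proteases (-0.155), leucine and lysine breakdown (-0.12) and splicing (-0.10). As deposited these were positive. Chaperones (-0.32), autophagy (-0.45), histones (-0.36) and mitochondrial carbon metabolism (-0.73) were negative both ways.

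Genes with opposite signs at the ages depend on the orientation most. Each age had one sign on its 4 arrays and the signs differed for 88 of all genes tested and for 30 of the 106, 13 higher and 17 lower. AT2G39710 was at 1.80, 1.86, 1.098 and 1.23 at 10 days and at -0.53, -0.55, -0.66 and -0.33 at 21 days. The 21-day arrays were close together, and the difference of -2.01 ± 0.27 (adjusted p = 0.00331 in limma) was kept whichever array was left out. AT3G17710 had means of 1.34 and -1.004 and AT1G25400 of 0.98 and -1.05. AT5G10650 (-1.82) and AT1G04660 (-2.08) completed the 5 largest. AT1G04660 was lost with the closest pairs as a block (adjusted p = 0.134) and when array 60, 61, b100, b90, t100 or t90 was left out (up to 0.111), while AT1G25400, which had no EST common to both array types, was lost under the block (0.057) and kept whichever array was left out.

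Genes with one sign on all 8 arrays were 100 in number, 53 positive and 47 negative. On the positive side AT4G17670 was at 1.13, 1.73, 1.74 and 1.73 at 10 days and at 0.14, 0.30, 0.13 and 0.49 at 21 days, and passed as lower (-1.32 ± 0.26), though not with the closest pairs as a block (adjusted p = 0.0507 in limma). AT5G52540, AT1G09690, AT5G08300 and AT5G56670 were the next largest and did not pass. AT5G08300 was nearly alike at both ages, with means of 0.91 ± 0.52 and 0.75 ± 0.27 (SD, n = 4 each). On the negative side CHC1, a subunit of SWI/SNF chromatin-remodelling complexes, had means of -1.01 ± 0.25 and -0.71 ± 0.15 and a difference of 0.30 ± 0.25. AT4G18380 had means of -0.85 and -0.75, and AT5G23850 and AT1G48650 also belonged here without passing. AT5G25820, among the 10 largest higher differences above, was negative on all 8 arrays too, from -2.36 to -1.45 at 10 days and from -0.49 to -0.12 at 21 days.

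Of 21 genes for the attachment of sugars and glutathione to small molecules 2 passed as lower and 0 as higher. Over all genes tested 2.26% passed as lower and 1.37% as higher. The median difference of the 21 genes was -0.25, with 15 negative. GT72B1, which glucosylates monolignols and foreign phenols, was at 3.29, 2.33, 1.85 and 1.19 at 10 days and at -1.08, -0.22, 0.11 and 1.24 at 21 days. The highest array of 21 days reached just past the lowest of 10 days, and GT72B1 was the single gene of the 106 whose ages overlapped. The difference was -2.15 ± 0.51 (adjusted p = 0.0408 in limma). UGT72E2, which glucosylates the monolignols coniferyl and sinapyl alcohol, differed by -1.17 ± 0.28 (adjusted p = 0.0441). Neither passed with the closest pairs as a block (adjusted p = 0.0999 for both). GT72B1 was lost on removal of array 56, 57, 60, b100, b90 or t100 (adjusted p up to 0.0984). UGT72E2 was lost on removal of array 56, 57, 60, b90, t100 or t90 (adjusted p up to 0.115). The cytochrome P450 genes CYP71B19 (-1.35) and CYP71B20 (-1.04), named after their values had been seen, also passed as lower and not under that block (adjusted p = 0.067 and 0.131).

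OSM34, an osmotin-like protein of the pathogenesis-related kind, also named after its values had been seen, was at 1.61, 1.30, 2.14 and 1.94 at 10 days. At 21 days it was at -0.43, 0.44, -0.32 and 0.48. The ages did not overlap, and the difference of -1.70 ± 0.31 (adjusted p = 0.0148 in limma) passed whichever array was left out, with the closest pairs as a block (0.0358) and with the sign turned, but not with quantile normalisation (0.0512).

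Genes for splicing and nuclear RNA processing, are the closest in function to the known substrates of LAMMER kinases. Of 20 genes 1 passed as higher and 0 as lower, near the 3.63% called over all genes tested, and the median difference was 0.10 with 14 positive. The listed gene that passed was VCR, a relative of the decapping scaffold VARICOSE, at -1.69, -0.91, -2.12 and -1.10 at 10 days and 0.17, -0.06, -0.06 and -0.27 at 21 days. Its ages did not overlap, with a difference of 1.40 ± 0.30 (adjusted p = 0.0276 in limma, 0.0656 with the closest pairs as a block). VCR was lost on removal of array 56, 60, b100, b90, t100 or t90 (adjusted p up to 0.0815). VCR acts on messenger RNA in the cytoplasm rather than on splicing. The splicing factor ATU2AF65A, which recognises the 3' splice site, differed by 0.10 and the serrate gene SE by 0.20.

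AME3 was the measured Arabidopsis LAMMER kinase. It was at 0.03, 0.21, 0.66 and 0.09 at 10 days and at -0.15, -0.16, -0.02 and 0.27 at 21 days. The ages overlapped, and its difference of -0.26 ± 0.26 did not pass (adjusted p = 0.585 in limma). The 8 protein kinases of the list that holds AME3 had a median difference of 0.31, with 0 past the threshold, and ATSK12 had the largest size (-1.29 ± 0.41, adjusted p = 0.0968).

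PGY2, a ribosomal protein of the large subunit whose loss affects leaf polarity, passed as lower with -1.24 ± 0.30 (adjusted p = 0.0441 in limma). It had positive values on all 4 arrays of 10 days and negative ones on 3 of the 4 arrays of 21 days, but it was not called with the closest pairs as a block (adjusted p = 0.0999). PGY2 kept its call without array t90 and was lost without any other (adjusted p up to 0.113). Of 22 genes of the ubiquitin system UBC32 was the one that passed, and the median was 0.03. Among 16 proteases the carboxypeptidase SCPL49, an enzyme of the vacuolar type, passed as higher (1.32 ± 0.26, adjusted p = 0.0177 in limma and 0.0507 with the closest pairs as a block). Its 2 common ESTs differed by 0.31 and 2.33.

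Of 12 chaperones 0 passed, and the median was -0.25. The cytosolic chaperone Hsp70-2 came nearest, with 1.40, 1.18, 1.21 and 1.15 at 10 days and -0.48, 0.33, 0.14 and 0.59 at 21 days. The ages did not overlap (-1.09 ± 0.28, adjusted p = 0.052 in limma), and Hsp70-2 passed with the sign turned (-1.38, adjusted p = 0.016). BIP1, the luminal binding protein of the endoplasmic reticulum, was positive on 7 of 8 arrays and at -1.25 on array b100, with a difference of -0.52. The 8 autophagy genes, among them 6 of the ATG8 kind that coats autophagosomes, had a median of -0.38 and APG8A the largest size (-0.82 ± 0.42, adjusted p = 0.265). The median of the autophagy list was 0.60 and 0.81 on arrays 56 and 57 but -0.18 and 0.18 on arrays 60 and 61, within the range of 21 days (-0.35 to 0.20).

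All 7 genes of mitochondrial carbon metabolism had a negative difference, with a median of -0.60 and 0 past the threshold. The succinate dehydrogenase subunits SDH2-2 (-0.98 ± 0.38, adjusted p = 0.16 in limma), SDH1-1 (-0.81) and SDH2-1 (-0.81) were the largest in size. With the sign turned SDH2-2 and SDH1-1 passed. MCCB, a subunit of the carboxylase that breaks down leucine, was at -1.33, -0.93, -0.99 and -0.58 at 10 days and at 0.59, 0.56, 0.12 and 0.21 at 21 days. Each age had one sign, and MCCB passed as higher with 1.33 ± 0.26 (adjusted p = 0.0187 in limma, 0.057 with the closest pairs as a block). MCCB was lost on removal of array 56 or b90 (adjusted p up to 0.058). It was the 1 of 7 genes of this breakdown that passed, and its partner subunit MCCA differed by 0.36.

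Among 11 antioxidant enzymes TAPX, the ascorbate peroxidase bound to the thylakoid, passed as higher. It was at -1.11, -0.92, -1.14 and -0.78 at 10 days and at 0.07, 0.17, -0.14 and -0.04 at 21 days. The difference of 1.001 ± 0.24 (adjusted p = 0.0408 in limma) was lost with each of the 8 arrays left out in turn (adjusted p from 0.0602 to 0.0997). The stromal form SAPX differed by -0.05. Methionine sulfoxide reductase MSRB9 (-1.24) and the glutathione reductase GR1 (-0.96) had non-overlapping ages in the other direction and did not pass.

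Transport and structure were mixed in direction. RAB6A, a small GTPase of traffic at the Golgi, was at 1.30, 2.59, 0.52 and 1.31 at 10 days and at -0.39, 0.08, -0.27 and 0.01 at 21 days. It passed as lower (-1.57 ± 0.38, adjusted p = 0.0441 in limma, 0.101 with the closest pairs as a block), the 1 of 26 genes of vesicle traffic to do so. RAB6A kept its call without array 60 and was lost without any other (adjusted p up to 0.101). Of 26 cell wall genes the pectin methylesterase PMEPCRF passed as lower (-1.03 ± 0.25, adjusted p = 0.0449 in limma), and was lost whichever of the 8 arrays was removed (adjusted p from 0.0712 to 0.115). The ages of PMEPCRF lay between 1.14 and 1.40 and between -0.27 and 0.41. Of 21 cytoskeleton genes 0 passed, with NET1C, a protein that links actin to membranes, at -1.12 ± 0.31 (adjusted p = 0.0633).

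The lists of chromatin and transcription genes held 0 past the threshold, and genes outside these lists were not searched for this function. Of 10 histone genes 9 had a negative difference, with a median of -0.45, and AT5G10980, which encodes histone H3.3, was the largest in size at -1.12 ± 0.38 (adjusted p = 0.113 in limma). The median of the histone list was 0.57 and 0.53 on arrays 56 and 57 but -0.13 and -0.01 on arrays 60 and 61, which lay within the range of 21 days (-0.21 to 0.03). With the sign turned 4 of the 10 were positive. The 16 genes of chromatin and the transcription machinery had a median of 0.14 and the 28 transcription factors of -0.13. The MYB-related factor AT5G47390, known as KUA1, had the largest size among the transcription factors (0.92 ± 0.32, adjusted p = 0.122), with 1.34 on array b100 and 0.09 or less on the others of 21 days. NRPB3, a subunit of RNA polymerase II, was the largest among the machinery at -0.63.

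The remaining lists held 0 genes past the threshold. The 10 genes of responses to cold, drought and abscisic acid had a median of -0.18, with HVA22C at 0.77. The median ratio of these genes was 0.62 and 0.34 on arrays 56 and 57 but -0.45 and -0.17 on arrays 60 and 61. On the arrays of 21 days it lay between -0.18 and 0.05. The 10 transporters had a median of 0.05, with AT2G26690 (NPF6.2, of the nitrate and peptide family) at 1.202. The 8 beta-glucosidases and proteins of endoplasmic reticulum bodies had a median of 0.33, with BGLU21 at 0.95 (adjusted p = 0.0639 in limma). The receptor kinase FER, which binds peptides that regulate growth, was at -1.003 in a list of 7 with a median of 0.33. With the sign turned FER passed (-1.53, adjusted p = 0.0261 in limma). The 5 genes of the vacuolar proton pump had a median of -0.23, and AT4G02620, its F subunit, differed by 1.22 ± 1.48 with 8.12 on array b100, and by -0.87 without that array. In all, 14 of the 336 listed genes passed, 9 higher and 5 lower, beside 106 of the 2917 genes tested (3.63%), 40 higher and 66 lower. Of these 14, TROL and UBC32 passed with the closest pairs as a block.

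**Figure D5:**
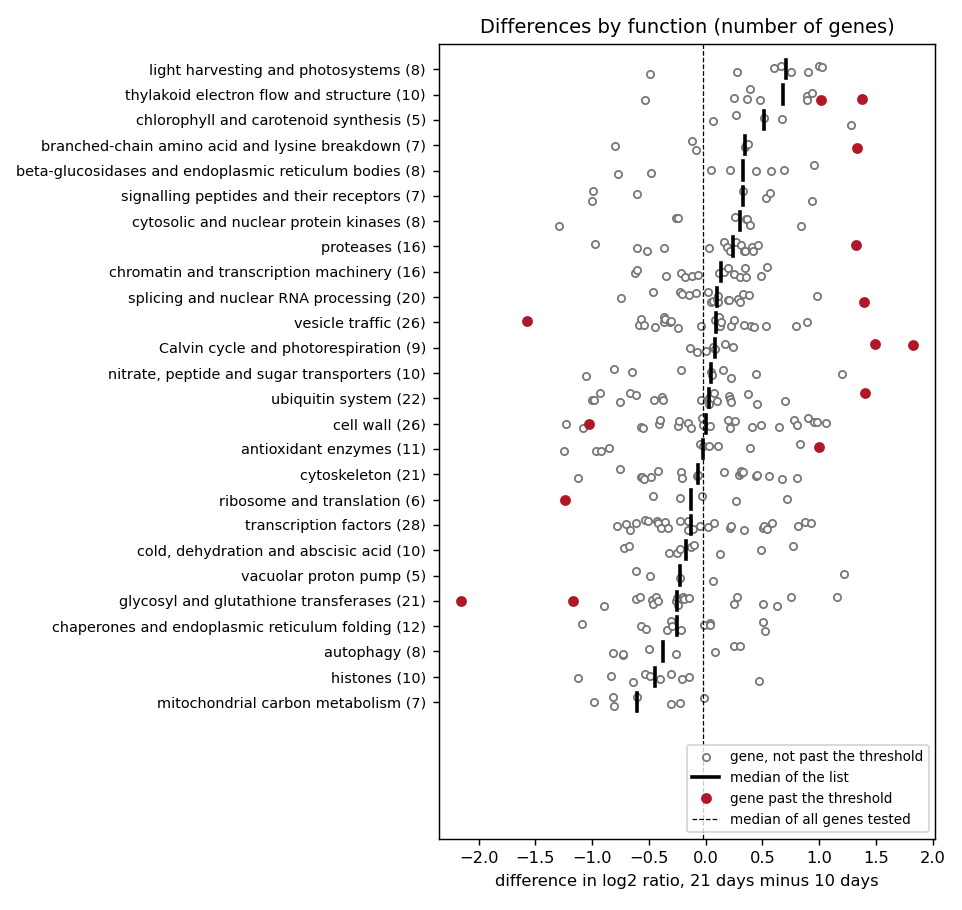
Difference in log2 ratio, 21 days minus 10 days (x axis), of each gene in 26 function lists, with filled points for genes past the threshold, bars for the median of a list and a dashed line for the median of all genes tested. List medians run from -0.60 in mitochondrial carbon metabolism to 0.71 in light harvesting, and no list has more than 2 filled points.

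Markers of single organs were few among the genes tested. Of 4 root markers 3 were measured, all with a positive difference (PYK10 0.69, AT5G17820 1.07 and AT2G18980 1.56), and AT2G18980 passed as higher. Their median lay between -1.13 and -0.41 on the arrays of 10 days and between -0.42 and 0.91 on those of 21 days, which is the direction of the photosynthesis genes as deposited. With the sign turned PYK10 came to -0.195, 2 of the 3 root markers stayed positive and 0 passed. Of 11 seed markers 1 was measured, the storage protein PAP85, at 0.73, 1.23, 4.70 and 4.85 at 10 days and between -0.39 and 0.04 at 21 days. Its ages did not overlap, and its difference of -3.06 ± 0.80 did not pass (adjusted p = 0.0572 in limma). Arrays 60 and 61 stood far above 56 and 57. RCA was the 1 of 3 mesophyll markers measured, and markers of flowers, guard cells and phloem were not among the genes tested. The part of organ composition in the differences was not tested, and in bulk RNA fewer cells of a type and less RNA per cell cannot be told apart.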

How the data were processed

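The 8 arrays were 2-colour EST hybridisations. The authors deposited a log10 ratio for each EST and array, a unit taken from the values. As powers of 10 the values checked gave ratios with few decimals for 100% of ESTs on every array but 56. On array 56 this held for 8.31%, so its unit was assumed to be that of the other arrays. For scanner, dyes, background correction and normalisation, the labels' protocols record no step. The 10-day type held 11965 ESTs, of which 5216 name 1 gene, 73 several and 6676 none, and the 21-day type 8829, of which 3910, 54 and 4865 do. ESTs naming several genes or none were left out. Symbols came from the platform annotation and RefSeq, which lacked 4 genes.

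The log10 ratios were converted to log2, centred on the median of each array and averaged over the ESTs of a gene, and 2917 genes with a value on all 8 arrays were kept. Ages were compared with limma 3.58.1 (statmod 1.5.0) in R 4.3.3, without covariates, with Benjamini-Hochberg adjustment over the 2917 genes and a threshold of 0.05. In data simulated with independent noise over 2917 genes, the fit recovered 43% of genes changed by 1 and 90% of genes changed by 2 on the log2 scale, with 8 false among 141 calls. The real arrays correlated in pairs, which the simulation leaves out, so these shares do not describe the real data.

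Members and lists were chosen with earlier results of these data known. Named genes were the 10 largest non-overlapping differences past the threshold on either side, up to 3 past the threshold per list of at least 3 genes or else its largest, the measured LAMMER kinase, up to 5 past the threshold with opposite uniform signs, the 5 most positive and 5 most negative means over genes with one sign on all arrays, and the 5 largest past the threshold only with the sign turned. RH39 and other genes outside this rule were chosen after their values had been seen. The alternatives were other centring, scaling, EST averaging and test settings, the turned sign, pairs of arrays as a block and each array left out. The block of closest pairs was added after seeing the correlations.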

Additional observations from a re-analysis of the deposited data

Results flagged for a closer look

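The difference between the ages passed limma's threshold for 40 genes with a higher and 66 with a lower ratio at 21 days. That test takes the 4 arrays of an age as replicates, though they come from 2 experiments. With the closest pairs as a block 8 and 21 passed. TAPX and PMEPCRF, named below, lost their call whichever array was left out. Among the named genes the difference was positive for AT5G49440 (2.09), AT3G43540 (1.89), AT4G29590 (1.86), RCA (1.82), AT4G30630 (1.76), AT5G66390 (1.72), AT5G01090 (1.64), AT3G56510 (1.63), AT5G25820 (1.56), AT2G18980 (1.56), PRK (1.49), UBC32 (1.40), VCR (1.40), TROL (1.38), MCCB (1.33), SCPL49 (1.32), AT1G52220 (1.01) and TAPX (1.001). It was negative for AT1G76960 (-3.85), AT3G13650 (-2.97), AT2G38870 (-2.955), AT5G63940 (-2.79), AT3G26470 (-2.47), AT3G17710 (-2.35), AT3G02360 (-2.23), AT3G60420 (-2.19), GT72B1 (-2.15), AT5G17760 (-2.13), RAP (-2.13), AT1G04660 (-2.08), AT1G25400 (-2.03), AT2G39710 (-2.015), AT5G10650 (-1.82), RAB6A (-1.57), AT4G17670 (-1.32), PGY2 (-1.24), UGT72E2 (-1.17) and PMEPCRF (-1.03). Age cannot be told apart from array type for any of them.

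In 7 of 134 groups of 4 arrays, each holding a named gene at one age, 1 array lay far from the other 3, where chance flags about 1 in 20 groups. At 21 days array b100 was the distant one for AT4G02620 (8.12), AT5G47390 (1.34), AT5G42530 (-1.98) and AT1G08940 (1.91). At 10 days array 56 was distant for AT2G26690 (-1.73) and AT4G17670 (1.13), and array 61 for HVA22C (-0.36).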

How the results depend on the processing

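The counts of 40 higher and 66 lower genes stayed within 1.5 times under no centring, shared ESTs only, the median over ESTs, robust eBayes, array weights and at least 3 values per age. They were 19 and 32 with arrays scaled to one spread, 26 and 35 with quantile normalisation, 69 and 102 with a running median of neighbouring ESTs removed, 84 and 109 over single shared ESTs, and 0 and 10 when testing against a log2 difference of 0.5. With the 21-day sign turned they were 71 and 107. Pairing arrays by title as a random block gave 66 and 100 (b with b) or 26 and 41 (90 with 90). The closest pairs, with b100 and t100 as the remaining pair, were chosen after seeing the data and gave 8 and 21. The block correlation was -0.09, 0.09 and 0.21 in that order, negative for the pairing with the most genes. No paired analysis by replicate number was possible because the array titles share no number across the ages. Leaving out 1 array gave 11 to 35 higher and 29 to 62 lower genes, with 15 and 31 without array 56, 17 and 34 without b90, 20 and 41 without t100, 11 and 29 without t90, and 23 higher without array 60. The cause of these shifts was not tested.

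With the 21-day sign turned AT5G01090 came to -0.86, AT5G10980 to 0.56, AT4G02620 to -2.49, AT1G25400 to 0.079 and AT1G48650 to 1.56. AT5G08300 came to 0.0802 when scaled, 0.0666 with quantile normalisation and 0.139 with the running median removed, and AT4G18380 to -0.0819 when scaled and -0.0208 with quantile normalisation. With 1 array left out AT4G02620 ranged from -0.87 to 2.02, AT5G08300 from -0.38 to 0.0127 and AT4G18380 from -0.0434 to 0.25. Of 432 medians of lists under other settings, 40 moved by more than the spread, 15 of them with the sign turned. The files hold no intensities, so signal over background could not limit the genes tested.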
